A study of Sus scrofa with 9 samples.

Results

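The genes described here are the translation initiation, elongation and termination factors of a custom porcine microarray, followed in testis biopsies of fertile boars, of an oligospermic boar and of a boar carrying the t(1;14) reciprocal translocation. A probe belonged to the set if its gene name began with EIF or EEF and a digit, with PABPC or PAIP, or with ETF1 or GSPT. This gave 109 probes for 32 gene names, of 60889 non-control probes and 49437 distinct gene names on the array. Each gene was represented by its brightest probe in the table of log2 values made by the authors, which left 31 genes, because the probe of PAIP1 is not listed there. EIF2C1, EIF2C2 and EIF2C4 entered through their former names: they are the Argonaute genes AGO1, AGO2 and AGO4, whose proteins carry small RNAs and are not translation factors, and counts are given with and without them.

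Total RNA was hybridized to 9 single-colour arrays, 3 per group. The control group comprised fertile boars with normal semen and a normal XY karyotype, and the sources used here do not say which control animal or pool each array holds. The oligospermic arrays came from 1 boar with low sperm output and a normal XY karyotype, and the t(1;14) arrays from 1 boar with oligo-astheno-teratospermia (few, poorly motile and misshapen spermatozoa), so in these groups the spread between arrays is that between biopsies or extractions of 1 animal, while the control spread may also hold differences between animals. The p-values therefore compare arrays and not populations of animals. Each of the 3 slides held 1 array of each group, and 37087 to 40632 of the 60889 probes were well above background on an array.

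Translation starts when initiation factors bring the small ribosomal subunit to the capped end of an mRNA. The cap-binding complex eIF4F, made of eIF4E, the scaffold eIF4G and the helicase eIF4A, opens the leader, and eIF1A and eIF2 with its initiator tRNA find the start codon. Poly(A)-binding protein holds the other end of the message, elongation factors then deliver the aminoacyl-tRNAs and move the ribosome along, and the release factors eRF1 and eRF3 end the chain. In the testis these steps are under strong control, since spermatids store many mRNAs and translate them only after transcription has stopped.

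The values that follow are hybridization signals of 60-base probes, and 3 sets of these probes are printed here. The first pair lies in homologous coding stretches of the helicase paralogs EIF4A1 and EIF4A2, and neither probe is the chosen one of its gene. They align with 1 unpaired base in the EIF4A1 probe and 57 paired bases, of which 44 (77.2%) are identical. Such an unpaired base shifts the reading frame between the probes, and its origin was not checked against a reference sequence. Capitals mark the bases that differ or have no partner, and the longest run of bases that both probes hold is 8.
EIF4A1 probe: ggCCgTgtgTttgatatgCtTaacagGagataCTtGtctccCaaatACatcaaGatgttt
EIF4A2 probe: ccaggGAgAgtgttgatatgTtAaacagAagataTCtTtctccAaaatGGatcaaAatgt
The next pair are the AGO2 probes, shown because AGO2 was the only gene past both thresholds of the tests below, with a signal that was well above background on only 1 of the 3 t(1;14) arrays. They read different coding stretches and share no run longer than 6 bases.
AGO2 probe 1: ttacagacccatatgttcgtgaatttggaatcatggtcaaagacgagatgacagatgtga
AGO2 probe 2: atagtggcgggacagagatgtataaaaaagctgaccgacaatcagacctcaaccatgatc
The last set are 3 overlapping probes of PABPC1. Capitals mark the 46 bases they share, so they read nearly the same stretch of the message and are not independent.
PABPC1 probe 1: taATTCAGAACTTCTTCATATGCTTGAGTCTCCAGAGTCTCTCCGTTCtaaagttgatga
PABPC1 probe 2: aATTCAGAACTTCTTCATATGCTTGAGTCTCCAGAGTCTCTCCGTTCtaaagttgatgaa
PABPC1 probe 3: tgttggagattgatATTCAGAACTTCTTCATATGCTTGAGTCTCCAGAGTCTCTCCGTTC

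In the t(1;14) testis, 5 of the 31 genes were higher than in control and 1 was lower. The higher genes were EIF1AX, EIF1AY and EIF5B, which act at the start codon and at the joining of the ribosomal subunits, the helicase EIF4A2, and EIF4EBP2, an inhibitor of eIF4E. The lower gene was AGO2. A gene was called higher or lower at an adjusted p of at most 0.01 in the limma test over all 40643 probes tested, and the threshold of the methods adds a log2 fold change of at least 2 in size, which only AGO2 reached, on a signal that was well above background on 1 of the 3 t(1;14) arrays. Of all probes tested, 15.6% were called higher and 15.6% lower, and 5.53% passed both thresholds, beside 16.1% of the 31 genes higher and 3.23% lower. The arrays of the groups did not overlap for 22 of the 31 genes (71%), against 62% of all probes. The median log2 fold change was 0.28 over the 31 genes and 0.14 over all probes tested, but with scaling to the 75th percentile it was 0.12 over the genes, below the 0.16 over all probes. Without the Argonaute genes, 5 of 28 genes were higher, 0 were lower at an adjusted p of at most 0.01 in limma, and the median was 0.28. An unadjusted p under 0.05 was found for 18 of the 28 genes and for 58% of all probes tested. The split of 5 higher to 1 lower became 5 to 2 when arrays were scaled to the 75th percentile, 5 to 3 with normexp background correction, 7 to 4 with all 9 arrays in one model and 7 to 5 with an intensity trend of the variances.

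**Figure D1:**
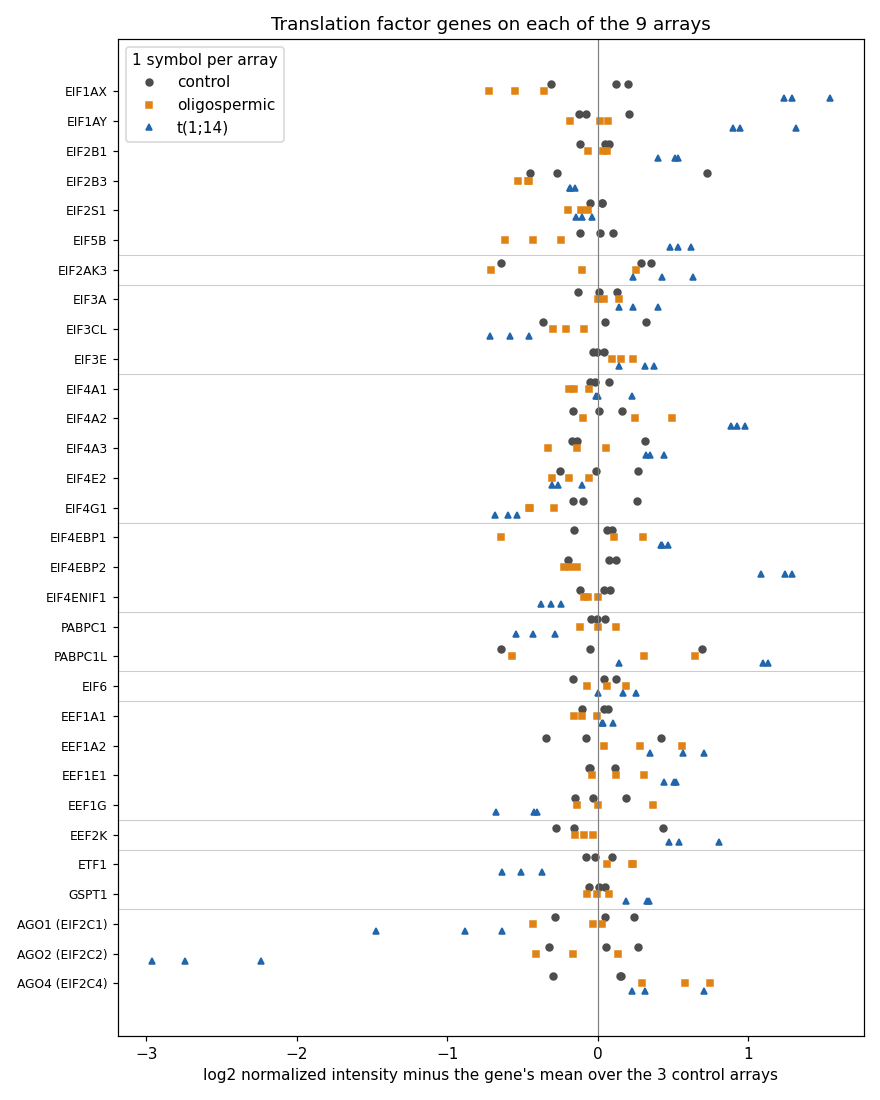
Each symbol is 1 array and gives the log2 normalized intensity of the gene's chosen probe minus its mean over the 3 control arrays (horizontal axis); genes are rows, grouped by role with grey lines. The t(1;14) triangles stand right of both other groups for EIF1AX, EIF1AY, EIF5B, EIF4A2 and EIF4EBP2 and far left of them for AGO2, whereas the oligospermic squares overlap the control circles for all but 8 of the 31 genes.

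Of the 6 measured genes of start codon selection and the eIF2 cycle, 3 were higher in t(1;14) testis and 0 lower, beside 15.6% of all probes in each direction. EIF1AX encodes eIF1A, which binds the small subunit and keeps it open for scanning. Its log2 intensity, with the 9 arrays normalized together, was 8.99, 9.42 and 9.50 on the control arrays, 8.76, 8.95 and 8.58 on the oligospermic arrays and 10.59, 10.54 and 10.84 on the t(1;14) arrays. All t(1;14) arrays exceeded all others, and the log2 fold change against control was 1.33 ± 0.17 (SE, n = 3 per group, adjusted p = 0.0016 in limma), a 2.51-fold difference. Within the slides the difference was 1.52, 1.40 and 1.07.

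EIF1AY is the copy of the same gene on the Y chromosome. It measured 8.90, 9.23 and 8.94 in control, 9.04, 9.09 and 8.84 in oligospermic and 9.97, 9.92 and 10.34 in t(1;14) testis. Its t(1;14) values again lay above all others, by 1.03 ± 0.16 on the log2 scale against control (adjusted p = 0.0031 in limma), with 1.01, 1.09 and 1.01 within the slides. EIF1AY lost its call without control array 3, without t(1;14) array 1 or 3 and with the replicate number as a block. The EIF1AX and EIF1AY probes share no run longer than 6 bases, but whether either probe also binds the message of the other gene was not tested.

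EIF5B, the GTPase that joins the large subunit to the small, read 8.23, 8.0 and 8.14 in control and 8.74, 8.66 and 8.60 in t(1;14) testis, with 7.88, 7.69 and 7.50 in the oligospermic boar. The groups did not overlap, and the rise against control was 0.54 ± 0.11 (adjusted p = 0.0094 in limma). This call was the weakest of the set: with the slide as a block the adjusted p was 0.019, and it was lost on leaving out any 1 of the 6 arrays. EIF2B1, the alpha subunit of the factor that recharges eIF2 with GTP, differed by 0.47 ± 0.11 and did not pass (adjusted p = 0.014 in limma).

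The other measured genes of this step showed no call. EIF2S1, the eIF2 subunit that stress kinases phosphorylate, differed by -0.09 ± 0.10, and its 6 probes ran from -0.45 to -0.09. EIF2B3, the gamma subunit of the exchange factor, differed by -0.18 ± 0.30. Its control arrays read 11.57, 12.56 and 11.39 against 11.66 to 11.69 in t(1;14) testis, so 1 control array set most of its error. EIF2AK3, the kinase PERK of the endoplasmic reticulum, differed by 0.43 ± 0.29 (adjusted p = 0.25 in limma).

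Of the 5 eIF4 factors 1 was higher (20%, beside 15.6% of all probes tested), and the helicase paralogs differed in their calls. EIF4A2 read 13.56, 13.23 and 13.40 in control, 13.89, 13.64 and 13.30 in oligospermic and 14.28, 14.32 and 14.38 in t(1;14) testis. The t(1;14) arrays lay above all others, and the log2 fold change against control was 0.94 ± 0.12 (adjusted p = 0.0017 in limma), with 0.77, 1.16 and 0.89 within the slides. With this probe EIF4A2 lost its call without t(1;14) array 1 or 3 and with the replicate number as a block. Of its 13 probes, 12 were called higher, and all 13 ran from 0.63 to 1.13; 6 of them share a run of at least 20 bases with another. EIF4A1, the paralog with the same activity, differed by 0.07 ± 0.12 (adjusted p = 0.65 in limma), and its 3 probes gave 0.07, -0.36 and 0.10. The homologous probes printed above gave 0.63 (adjusted p = 0.0070 in limma) for EIF4A2 and -0.36 (adjusted p = 0.062) for EIF4A1, and the difference between the paralogs was not tested. EIF4A3, the helicase of the exon junction complex, gave 0.36 and 0.08 with its 2 probes, neither of them called.

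**Figure D2:**
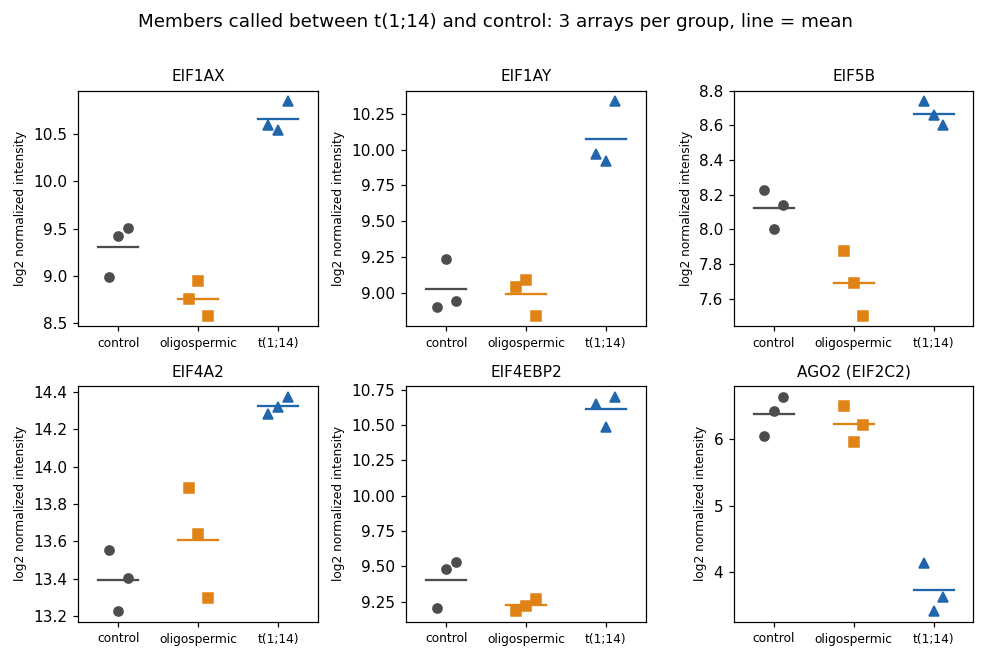
Log2 normalized intensity (vertical axis, own range in each panel, not starting at 0) of the 6 genes called between t(1;14) and control, on the 3 arrays of each group (symbols) with the group mean (line). The t(1;14) arrays are above all control and oligospermic arrays in 5 panels and below them for AGO2.

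Of the other eIF4 genes, EIF4G1, the scaffold of eIF4F, read 8.61, 8.97 and 8.54 in control and 8.03, 8.11 and 8.17 in t(1;14) testis. The groups did not overlap, but the difference of -0.60 ± 0.15 did not pass (adjusted p = 0.016 in limma). EIF4E2, a cap-binding relative of eIF4E that represses translation, differed by -0.22 ± 0.16.

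Of the 3 genes that act on eIF4E, 1 was higher, beside 15.6% of all probes tested, so the count does not set the group apart. EIF4EBP2, which occupies the site on eIF4E that eIF4G needs, read 9.21, 9.48 and 9.53 in control, 9.18, 9.22 and 9.27 in oligospermic and 10.65, 10.49 and 10.70 in t(1;14) testis. The t(1;14) arrays stood clear of the rest, at a log2 fold change of 1.18 ± 0.13 against control (adjusted p = 9e-04 in limma) and 1.26, 1.19 and 1.1 within the slides. Its second probe gave 0.78 (adjusted p = 0.0032 in limma). EIF4EBP1, its paralog, was dim at 4.44 to 4.70 in control and 5.02 to 5.07 in t(1;14) testis, a difference of 0.44 ± 0.12 that did not pass (adjusted p = 0.022 in limma). Its probe was designed on a read from the 3′ end of a cDNA and its strand was not settled here, so the difference is that of the probe and may not be that of the gene's mRNA. EIF4ENIF1, which carries eIF4E into the nucleus, differed by -0.31 ± 0.11 (adjusted p = 0.059 in limma).

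The eIF3 complex, the scaffold on the small subunit, had 3 measured genes and none was called. EIF3A, its core subunit, differed by 0.26 ± 0.13, EIF3E by 0.28 ± 0.11 and EIF3CL by -0.59 ± 0.19 (adjusted p = 0.045 in limma). EIF3CL, read by 1 probe, is the name in the set that matched no RefSeq gene of the pig. The 14 probes of EIF3E did not share a direction: 10 were positive and 4 negative, from -0.26 to 0.28. EIF6, which keeps free large subunits apart from small ones, differed by 0.14 ± 0.13.

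The poly(A)-binding protein PABPC1, which coats mRNA tails and contacts eIF4G, was bright on every array. Its chosen probe, probe 1 above, read 16.01, 15.92 and 15.96 in control, 15.96, 15.85 and 16.09 in oligospermic and 15.54, 15.68 and 15.42 in t(1;14) testis. The t(1;14) arrays lay below the other groups, and the difference from control of -0.43 ± 0.12 did not pass (adjusted p = 0.023 in limma). All 11 probes of the gene were negative, from -0.66 to -0.15, and 2 of them were called lower. The 3 overlapping probes gave -0.43, -0.21 and -0.62, of which only the last was called (adjusted p = 0.0050 in limma), and they were saturated on some arrays, where a brighter signal cannot be read. PABPC1L, a relative known from oocytes, spread from 7.30 to 8.64 in control and 8.09 to 9.08 in t(1;14) testis and differed by 0.78 ± 0.41 (adjusted p = 0.15 in limma). PAIP1, a PABPC1 partner that stimulates initiation, differed by 0.52 (adjusted p = 0.026 in limma) and is outside the counts above.

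None of the 4 elongation factor genes was called against control. EEF1A1, the main carrier of aminoacyl-tRNA, differed by 0.05 ± 0.11 with its chosen probe. This probe and 5 others of its 19 were saturated on at least 1 array, and these 6 gave -0.04 to 0.07, whereas the 13 probes that were never saturated gave 0.11 to 0.37. EEF1A2, the paralog of muscle and nerve, differed by 0.53 ± 0.22 (adjusted p = 0.081 in limma), and its slides gave 1.03, -0.07 and 0.64. EEF1G, a subunit of the exchange factor that recharges eEF1A, read 15.67, 15.33 and 15.45 in control and 15.05, 15.08 and 14.81 in t(1;14) testis, without overlap (-0.52 ± 0.15, adjusted p = 0.026 in limma). EEF1E1, a scaffold of the aminoacyl-tRNA synthetase complex, was 9.70, 9.53 and 9.53 in control and 10.03, 10.11 and 10.09 in t(1;14) testis, also without overlap (0.48 ± 0.11, adjusted p = 0.012 in limma). EEF2K, the kinase that slows elongation by phosphorylating eEF2, differed by 0.60 ± 0.21 (adjusted p = 0.056 in limma).

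Of the termination genes, GSPT1, which encodes the GTPase eRF3, differed by 0.29 ± 0.11 (adjusted p = 0.066 in limma). ETF1 encodes eRF1, which reads the stop codon, and its 3 probes gave different answers. The chosen probe read 13.74, 13.85 and 13.68 in control and 13.12, 13.39 and 13.25 in t(1;14) testis, a difference of -0.51 ± 0.12 that did not pass (adjusted p = 0.015 in limma). Another probe read 10.34, 10.36 and 10.32 in control and 11.26, 11.40 and 11.43 in t(1;14) testis and was called higher, at 1.01 (adjusted p = 0.00065 in limma). The last of them differed by 0.01, so no direction is given for ETF1 as a gene.

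**Figure D3:**
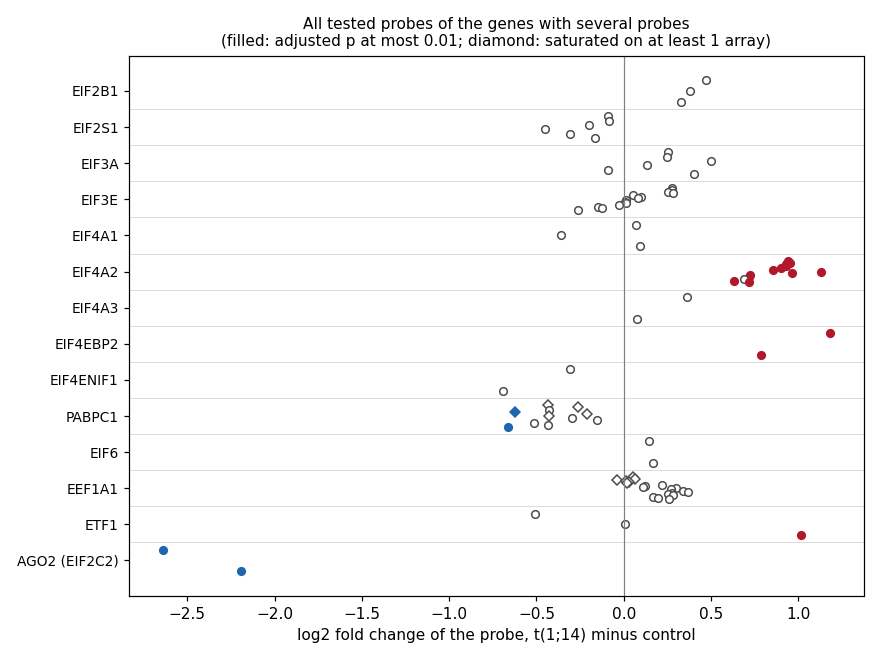
Each symbol is 1 tested probe of a gene with several tested probes (rows), placed at its log2 fold change of t(1;14) over control (horizontal axis); filled symbols passed an adjusted p of 0.01 and diamonds were saturated on at least 1 array. All EIF4A2 probes lie right of 0.6 and all PABPC1 probes left of 0, while the ETF1 probes spread from -0.51 to 1.01.

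AGO2, the slicing Argonaute, had a low signal: it read 6.05, 6.43 and 6.64 in control, 6.51, 5.96 and 6.21 in oligospermic and 4.14, 3.41 and 3.63 in t(1;14) testis. Both of its probes were well above background on 1 of the 3 t(1;14) arrays and on all arrays of the other groups, so AGO2 passed the filter on low signals only through the groups in which it was high and its size of change is not well measured. The t(1;14) arrays were below all others, at a fitted log2 fold change of -2.64 ± 0.24 against control (adjusted p = 0.00039 in limma) with -2.64, -2.79 and -2.50 within the slides, and the second AGO2 probe gave -2.19. Normexp background correction adds an offset of 50 to every intensity, which shrinks the changes of dim probes most. With it the log2 fold change of AGO2 was -0.87 (adjusted p = 0.00066 in limma), a size that cannot be ranked against those of brighter genes. AGO1 differed by -0.99 ± 0.25 (adjusted p = 0.018 in limma) without overlap, and AGO4 by 0.41 ± 0.19 (adjusted p = 0.12 in limma).

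EIF1AX and EIF4EBP2 were called in every alternative run. AGO2 was not tested when the filter was applied to both groups. The count of 5 higher genes fell to 2 without t(1;14) array 1 or t(1;14) array 3 and to 3 without control array 3, where EIF1AY, EIF4A2 or EIF5B no longer passed, and the count of lower genes rose to 2 without control array 1.

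The oligospermic boar did not differ from control in any of the 31 genes at an adjusted p of at most 0.01 in limma, neither higher nor lower nor past both thresholds, and an unadjusted p under 0.05 was found for 4 of the genes and for 9.86% of all probes. Among all 39713 probes tested, 0.0478% were higher, 0.0277% lower and 0.073% past both thresholds. The smallest adjusted p-values belonged to EIF1AX, at -0.55 ± 0.19 (adjusted p = 0.40), EIF5B, at -0.43 ± 0.15 (adjusted p = 0.40), and AGO4, at 0.55 ± 0.19 (adjusted p = 0.42). These 3 were among the 8 genes (25.8% of 31) without overlap between the groups, a state that 15.7% of all probes shared. EIF1AX and EIF5B thus had opposite signs in the oligospermic and the t(1;14) testis relative to the same control arrays. The median over the genes was -0.08, and it was 0.00 over all probes. Without control replicate 1, 2 or 3 the median over the genes was -0.03, -0.03 or -0.05.

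Compared directly with the oligospermic boar, the t(1;14) testis was higher in 7 and lower in 2 of the 31 genes. Of the 40567 probes tested, 27.1% were higher, 22% lower and 6.72% past both thresholds. The 2 lower genes were AGO2, which passed the filter only through the oligospermic group, and ETF1, whose probes gave different directions. Of the 31 genes, 22.6% were called higher and 6.45% lower, and the groups did not overlap for 23 genes (74.2%), against 70.9% of all probes. The split of 7 higher to 2 lower became 6 to 5 with scaling to the 75th percentile, 7 to 4 with normexp and 9 to 5 with an intensity trend. Arrays of the same slide deviated together in this comparison, and with the slide as a block the split was 9 to 4, with EIF4A3, PABPC1L, EEF1G and AGO1 (EIF2C1) called in addition. The median was 0.21, against 0.14 over all probes, but with scaling to the 75th percentile it was 0.09, below the 0.16 over all probes. This comparison uses the same t(1;14) arrays as the one with control, so it is no independent repeat of it.

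EIF1AX had the largest rise, 1.88 ± 0.14 (adjusted p = 7.2e-05 in limma), with 1.77, 1.88 and 2.00 within the slides. EIF4EBP2 rose by 1.38 ± 0.10, EIF1AY by 1.08 ± 0.14, EIF5B by 0.98 ± 0.12 and EIF4A2 by 0.72 ± 0.16. EEF2K and EIF2B1 passed here, at 0.70 ± 0.12 (adjusted p = 0.0023 in limma) and 0.46 ± 0.09 (adjusted p = 0.0046). Their differences from control were 0.60 and 0.47. EEF2K read 7.45, 7.39 and 7.33 on the oligospermic arrays, tighter than the control values of 7.92, 7.33 and 7.21, against 7.96, 8.29 and 8.02 in t(1;14) testis. EEF2K lost its call with all 9 arrays in one model. EIF2B1 lost its call on leaving out any 1 array and with normexp, and EIF4A2 lost it without oligospermic array 2 or any 1 of the t(1;14) arrays, with 75th percentile scaling and with no filter.

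AGO2 was lower here too, past both thresholds, at a fitted log2 fold change of -2.48 ± 0.22 (adjusted p = 0.00017 in limma) that became -0.85 with normexp. As against control, it passed the filter only through the group in which it was high, and the size of its change is not well measured. The chosen ETF1 probe was lower, at -0.68 ± 0.11 (adjusted p = 0.0019 in limma), a call that was lost without t(1;14) array 3, while another of its probes was higher by 1.02 and the mean of the 3 gave 0.06. PABPC1 differed by -0.42 ± 0.11 (adjusted p = 0.015 in limma), with all 11 probes negative and 4 of them called lower. EEF1A1 differed by 0.13 ± 0.09 with its chosen probe, whereas 9 of the 13 never-saturated probes were called higher, up to 0.61.

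**Figure D4:**
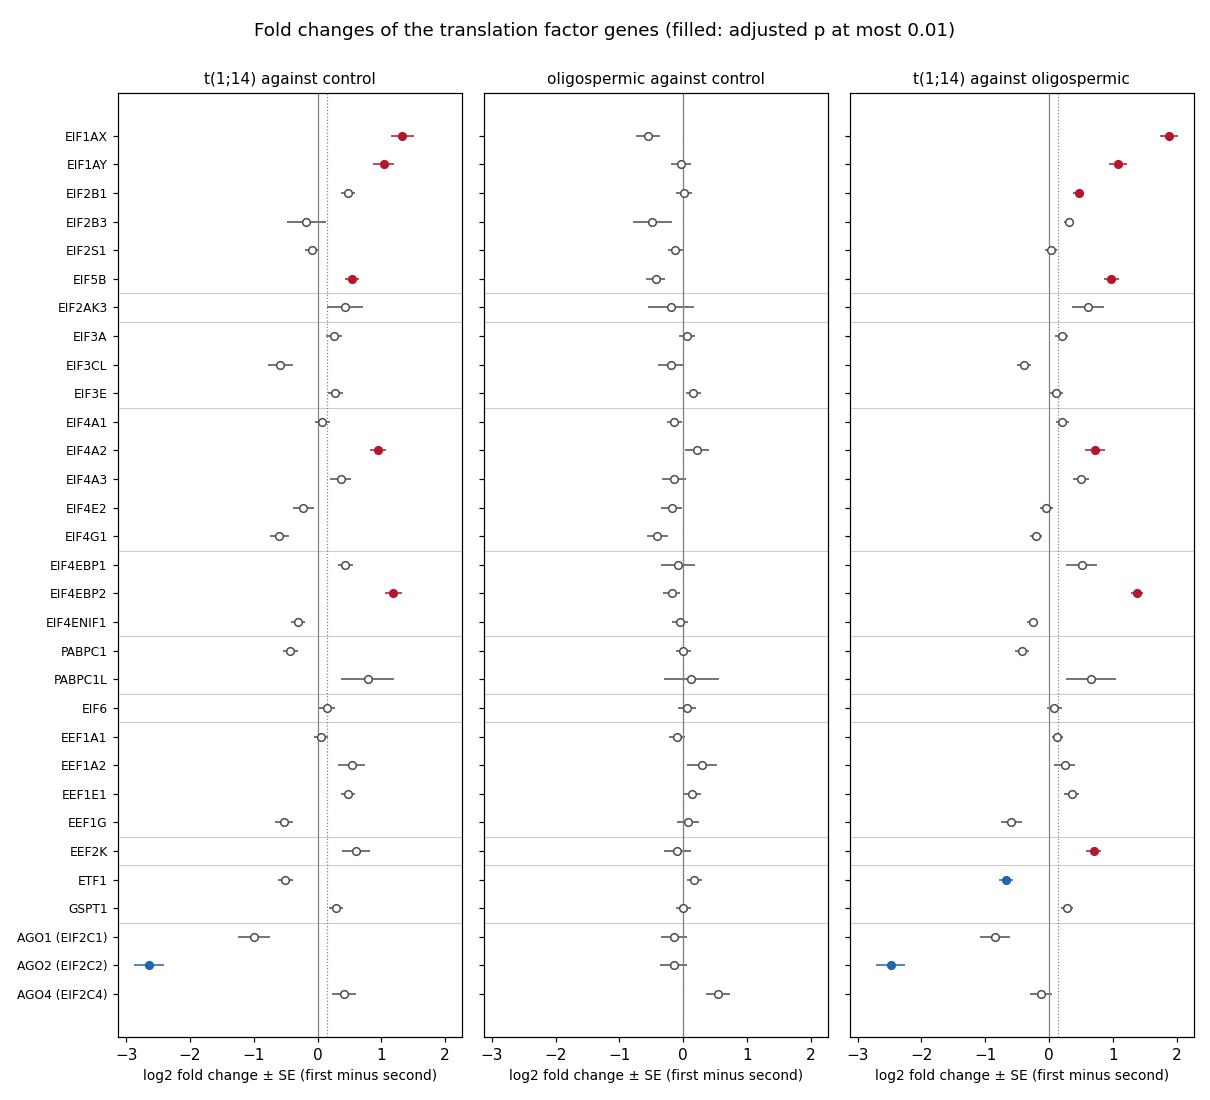
Log2 fold change ± SE (horizontal axis, first group minus second) of each gene's chosen probe in the 3 comparisons, with filled symbols for an adjusted p of at most 0.01 (red higher, blue lower) and a dotted line at the median of all probes tested. Filled symbols number 6 for t(1;14) against control, 0 for oligospermic against control and 9 for t(1;14) against oligospermic.

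Genes that regulate or supply these factors were counted in the same fits, in which 15.6% of all probes were higher and 15.6% lower in t(1;14) than in control testis, so counts of this size in short lists do not set a list apart. Of the mTOR pathway genes, 2 of 7 were higher and 1 lower in t(1;14) than in control testis: RPS6KB1, the kinase that phosphorylates ribosomal protein S6, rose by 1.1 and PDCD4, an inhibitor of eIF4A, by 0.70, and TSC1, a brake on mTOR, fell by 1.71 on the log2 scale. Of the integrated stress response genes, 2 of 6 were higher, the transcription factors ATF4 (0.71) and DDIT3 (0.51), and SESN2, which restrains mTOR, was lower (-0.93). Of the aminoacyl-tRNA synthetases, 1 of 6 was higher, RARS (0.74), and 2 were lower, HARS (-1.14) and VARS (-1.29). Of the ribosome rescue and recycling genes, 2 of 4 were higher, the recycling ATPase ABCE1 (0.72) and NEMF (1.20). Of the germ-cell regulators of translation, 1 of 10 was higher, CELF1 (0.84), and 2 were lower, the helicase DDX4 (-0.89) and FXR1 (-0.85). None of these genes reached a log2 change of 2, and none was called in the oligospermic boar against control. The median log2 fold changes of the lists, in the same order, were 0.61, 0.48, -0.10, 0.28 and 0.16, against 0.14 over all probes tested. Against the oligospermic boar, where 27.1% of all probes were higher and 22% lower, 2 mTOR genes were higher and 2 lower, 3 stress response genes higher and 1 lower, 2 synthetases higher and 2 lower, 2 rescue and recycling genes higher and 2 lower, and 3 germ-cell regulators higher and 3 lower.

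Markers of the cell types of the testis moved in the same comparison. In t(1;14) against control, 10 of 11 spermatid genes were lower (median -1.98; summed intensity 156000 to 169000 on the t(1;14) arrays, 356000 to 390000 on control and 377000 to 384000 on oligospermic arrays), and 8 of 10 Leydig cell genes were higher (median 1.72; 189000 to 200000 against 84100 to 88200 and 70500 to 91000). The spermatocyte list had 2 higher and 3 lower of 8, and its summed intensity was 58600 to 64100 on the t(1;14) arrays, 81900 to 95900 on control and 98100 to 106000 on oligospermic arrays. The spermatogonium list had 1 higher of 5, and its sum was 7640 to 8180 on t(1;14), 4040 to 6140 on control and 3910 to 5050 on oligospermic arrays. The Sertoli list had 2 lower of 9 but a median of 0.15, and its sum was above the other groups at 22800 to 24200, against 12000 to 22000 on control and 11200 to 16300 on oligospermic arrays. The peritubular and vascular list had 2 higher and 1 lower of 8, with overlapping sums of 15300 to 20600, 14200 to 25800 and 15200 to 22100 in the same order of groups. The immune list had 1 higher of 4, with a sum of 386 to 420 on t(1;14), 257 to 382 on control and 260 to 302 on oligospermic arrays. Compared with the oligospermic boar, 10 of 11 spermatid genes were lower in the t(1;14) testis (median -2.14) and 7 of 10 Leydig cell genes higher (median 1.42). In that comparison the spermatocyte list had 3 higher and 5 lower of 8, the spermatogonium list 2 higher of 5, the Sertoli list 1 higher and 2 lower of 9, the peritubular and vascular list 3 higher and 2 lower of 8 and the immune list 3 higher of 4. Every marker tested was well above background on at least 1 array of each group, and no marker was called in oligospermic against control. The part of these cell types in the changes of the translation genes was not tested. In whole biopsies, fewer cells of a type and less RNA per cell cannot be told apart.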

How the data were processed

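The authors labelled total RNA of the biopsies with cyanine 3, hybridized it to a custom 60K porcine Agilent array and quantified it in Agilent Feature Extraction 11.5.1.1. The deposited processed signals are intensity values after background subtraction, not normalized between arrays. A second deposited table holds log2 values that the authors quantile normalized over all 9 arrays, and per the labels they used limma (version not given in the sources used here). Here the deposited intensity was log2-transformed, quantile normalized over its 6 arrays in every comparison and tested with limma 3.58.1 (R 4.3.3). Per-array values are from the 9 arrays normalized together, so they differ slightly from the fitted means. To be tested, a probe had to exceed background clearly, and carry no outlier mark, in the deposited flags of 2 of 3 arrays in either group. Of the 109 probes, 106 were tested in each comparison. The members, lists and tests were chosen with earlier results of these data known. The rule for named genes took every member called (at most the 8 highest and 8 lowest), otherwise the 3 smallest adjusted p-values, and eIF2, its kinases, eIF4 paralogs, 4E-BPs, PABP, eEF1A and release factors by role. Of the 32 names, 31 matched a RefSeq gene of the pig, and 20 further probes are described as such factors under other names and were left out. Probe sequences are those of the deposited scanner files. The number of arrays limits the precision.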

Additional observations from a re-analysis of the deposited data

Results flagged for a closer look

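AGO2 (EIF2C2) was the gene whose change relative to control differed between the t(1;14) and the oligospermic boar past both thresholds: the direct comparison gave -2.48 ± 0.22 on the log2 scale (adjusted p = 0.00017 in limma, 3 arrays per group), lower on all 3 t(1;14) arrays than on all 3 oligospermic arrays. Both of its probes were well above background on only 1 of the 3 t(1;14) arrays, so the gene was tested only through the groups in which it was high and the size of its change is not well measured. AGO2 was not tested with the filter in both groups. With normexp background correction, whose offset of 50 shrinks the changes of dim probes most, the difference was -0.85, and no gene of the set passed both thresholds.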

How the results depend on the processing

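For t(1;14) against control, the 5 genes higher became 2 with the replicate block and 2 to 5 on leaving out 1 array in turn. The 1 gene lower became 2 with 75th percentile scaling, 3 with normexp, 4 with all 9 arrays in one model, 0 with the filter in both groups, 5 with an intensity trend, 0 without the 3 Argonaute genes (a setting chosen after seeing the data) and 1 to 2 on leaving out 1 array. The 1 gene past both thresholds became 0 with normexp, with the filter in both groups and without the Argonaute genes, and the median of 0.28 became 0.12 with 75th percentile scaling and 0.12 with normexp. For oligospermic against control, the median of -0.08 ran from -0.0729 to -0.0299 on leaving out 1 array, and 0 genes were called under any alternative run. For t(1;14) against oligospermic, the 7 genes higher became 4 with the replicate block. The 2 genes lower became 5 with 75th percentile scaling, 4 with normexp, 1 with the filter in both groups, 4 with the slide as a block, 1 with the replicate block, 5 with an intensity trend, 1 without the Argonaute genes and 1 to 2 on leaving out 1 array. The 1 gene past both thresholds became 0 with normexp, with the filter in both groups and without the Argonaute genes, the median of 0.21 became 0.0856 with 75th percentile scaling, and ETF1 turned to 0.0628 with the mean of all probes. AGO2 is dim in the t(1;14) testis and was not tested with the filter in both groups; the cause of the other shifts was not tested. Without a filter, the median of all probes moved from 0.14 to 0.03 (t(1;14) against control) and from 0.14 to 0.02 (t(1;14) against oligospermic). Replicate numbers did not pair the samples: same-numbered arrays correlated at -0.29, -0.20 and 0.14 in t(1;14) against control and at -0.43, -0.34 and 0.12 in t(1;14) against oligospermic. Arrays of the same slide correlated at 0.35, 0.11 and 0.12 in t(1;14) against control and at 0.50, 0.30 and 0.34 in t(1;14) against oligospermic. In oligospermic against control, where replicate number and slide coincide, they correlated at 0.49, 0.14 and 0.10.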

Other observations

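The probes of a gene did not always give its chosen probe's change. Of 106 member probes tested, 18 were higher (17%, beside 15.6% of all probes) and 4 lower (3.77%, beside 15.6%) in t(1;14) than in control testis, and 12 of the higher probes were of EIF4A2. Against the oligospermic boar 30 were higher (28.3%, beside 27.1%) and 7 lower (6.6%, beside 22%), the higher ones including 11 of EIF4A2 and 9 of EEF1A1, while 0 were called between oligospermic and control in limma. Probes of 1 gene are not independent: 6 of the 13 EIF4A2 probes and 11 of the 19 EEF1A1 probes share a run of at least 20 bases with another probe of the gene. EIF3A had 6 probes against control from -0.09 to 0.50 and EIF2S1 had 6 that were all negative, from -0.45 to -0.09. EIF4ENIF1 gave -0.31 and -0.69 with its 2 probes. EIF3E was positive in all 14 probes in oligospermic against control (0.09 to 0.19), with 0 of them called.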
